A study of Mus musculus with 6 samples.

Results

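The metabotropic glutamate receptors are a family of G protein-coupled receptors that neurons and glia use to sense glutamate outside the fast ion channels, and *Grm2* to *Grm8* were followed here in retinas with and without conditional deletion of *Yap*. The 7 genes were matched by their symbols among the 55421 genes of the count table. RNA of whole retinas from 2-month-old mice was measured by stranded RNA-seq, with 1 library for each of 6 animals. The 3 control retinas came from animals YR612, YR613 and YR615, of genotype Yapfl/fl, and the 3 *Yap* cKO retinas from animals YR711, YR713 and YR714, of genotype Yapfl/fl;RaxCreERT2, where fl marks a floxed allele. Animals of both groups received 4-hydroxytamoxifen at postnatal days 10 and 14. Controls therefore also carried the floxed alleles and were exposed to the drug, but had no Cre. Since no group carried Cre without the floxed alleles, the presence of Cre and the loss of *Yap* cannot be told apart. According to the study, the Cre acts in Müller glia and in the non-pigmented epithelium of the ciliary body, whereas the receptors studied here are mostly genes of retinal neurons. The comparison asks whether the receptors that read extracellular glutamate differ in RNA level between the groups, in a model in which the study also measured how Müller glia handle glutamate.

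Metabotropic glutamate receptors bind glutamate through a large extracellular domain and fall into 3 groups. Group I, here *Grm5*, couples to Gq and phospholipase C, whereas group II (*Grm2* and *Grm3*) and group III (*Grm4*, *Grm6*, *Grm7* and *Grm8*) couple to Gi and Go. In the retina the best known member is mGluR6, the product of *Grm6*, which sits on the dendrites of ON bipolar cells. Glutamate released by photoreceptors in darkness activates mGluR6 and, through Go, closes the cation channel TRPM1. When light lowers glutamate, the channel opens and the ON bipolar cell depolarises, and loss of this step causes congenital stationary night blindness.

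Counts assigned to genes ranged from 24261799 to 35067068 per retina, and 16575 genes passed a filter on low counts and were tested with edgeR's quasi-likelihood test. All 7 receptor genes passed this filter. Values of single retinas are given below in the order of the animal codes, YR612, YR613 and YR615 for controls, then YR711, YR713 and YR714 for the *Yap* cKO group. *Yap1*, the deleted gene, measured 9.61 ± 0.189 TPM (counts scaled by length and by library total, computed from counts and exonic length; SD, n = 3) in controls and 3.90 ± 0.12 TPM in *Yap* cKO retinas. Its log2 fold change was -1.36 (edgeR, adjusted p = 0.000282), and each library lay on the side of its label. Markers of the labelled tissue were present in every library, the 8 rod markers summing to between 51423 and 58024 TPM. Relative expression tracked gene length in single retinas. Across genes, Spearman's rho between relative expression and length was -0.413, 0.172 and -0.405 in controls and 0.396, 0.385 and -0.151 in *Yap* cKO. Control YR613 and *Yap* cKO YR714 thus each had the sign of most retinas of the other group. Log2 fold changes correlated with length at 0.391. Exonic length ran from 3049 bases in *Grm3* to 10247 bases in *Grm5*, so receptor fold changes are also given with a correction for length, which brought that rho to 0.0341.

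*Grm6* was the receptor gene that differed between the groups by the test, and it rose in *Yap* cKO retinas by 1.37-fold. Its level was 56.0, 56.9 and 51.6 TPM in controls, against 77.3, 80.3 and 77.4 TPM in *Yap* cKO. Every *Yap* cKO value exceeded every control value, with a gap wider than the range inside either group, at 54.9 ± 2.83 TPM in controls and 78.3 ± 1.67 TPM in *Yap* cKO (SD, n = 3 each). The log2 fold change was 0.46 (SE 0.0757, 95% interval 0.29 to 0.63, edgeR adjusted p = 0.0249). It was 0.42 after the correction for length (adjusted p = 0.0156), under which 2.53% of all tested genes passed in either direction and 0.977% were higher. The rise stayed under the minimum of 1.5-fold that the study's criteria add to an adjusted p of at most 0.05 and a mean of at least 5 TPM, although the interval of the fold, 1.22 to 1.54, reached past it. The call by adjusted p did not hold for every set of 5 retinas. It was lost without YR612 (adjusted p = 0.0785 in edgeR) or YR615 (0.131) of the controls, and likewise without YR711 (0.0539) or YR713 (0.13) of the *Yap* cKO group, while the log2 fold change stayed between 0.41 and 0.49 whichever retina was left out. In RNA of a whole retina, a change in the number of cells of a type and a change in RNA per cell cannot be told apart.

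By the criteria of fold, level and adjusted p, 0 of the 7 receptor genes were called, beside 0.796% of all tested genes, and the count was also 0 with DESeq2, with edgeR's likelihood ratio test and with limma-voom. At an unadjusted p of at most 0.05 there were 3, *Grm3*, *Grm5* and *Grm6*, beside 21.4% of all tested genes. By adjusted p alone 1 of 7 was higher, beside 0.501% of all tested genes, and 0 were lower. The log2 fold change was above 0 for 6 of 7, beside 50.3% of all tested genes, and for 5 of 7 with the correction for length, where *Grm8* changed sign. Its median was 0.19, or 0.14 with the correction for length, against 0.00168 over all tested genes. In *Grm3*, *Grm4* and *Grm6* all *Yap* cKO retinas lay above all controls in TPM, as they did for 15.2% of tested genes. The remaining 4 receptors overlapped between the groups.

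**Figure D1:**
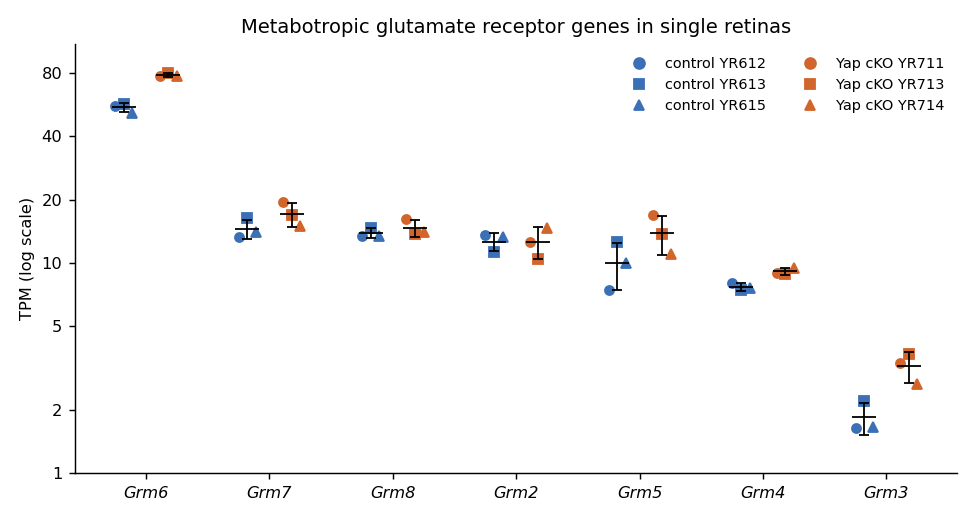
Level of each receptor gene in each of the 6 retinas, in TPM on a log axis, with group means (wide bars) and SD (error bars), genes ordered by their control mean. *Grm6* stands highest in every retina, and its *Yap* cKO points, 77.3 to 80.3 TPM, lie above its control points, 51.6 to 56.9 TPM.

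**Figure D2:**
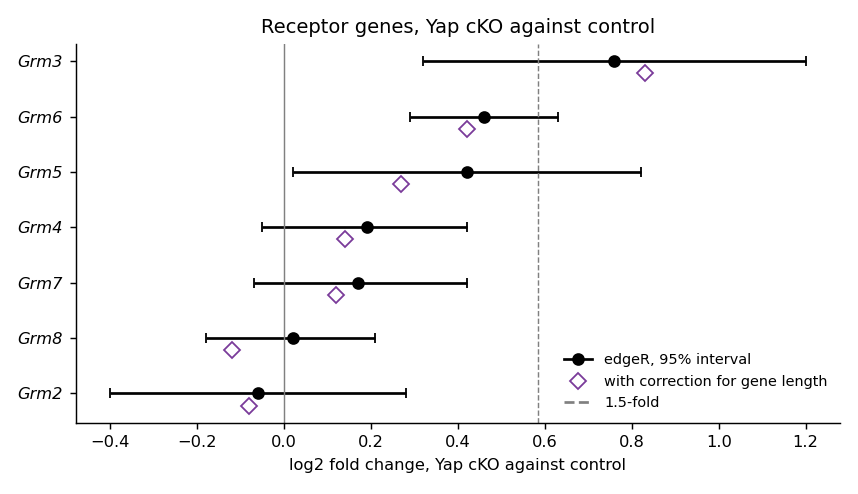
Log2 fold change of each receptor gene, *Yap* cKO against control, from edgeR (filled circles, bars are 95% intervals) and after the correction for gene length (open diamonds), with the dashed line at 1.5-fold. The interval of *Grm6*, 0.29 to 0.63, is the narrowest of the 3 that lie above 0, that of *Grm3*, 0.32 to 1.2, is the widest, and *Grm8* moves from 0.02 to -0.12 with the correction.

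*Yap* acts in the nucleus as a coactivator of the TEAD transcription factors, and genes of photoreceptors and bipolar cells are commonly driven by OTX2 and CRX. The 250 bases before the transcription start were therefore searched for the TEAD core GGAATG and the OTX/CRX core TAATC, on both strands. RefSeq windows on GRCm38.p6 were matched for 5 of the 7 genes, 8 windows in all, and none were matched for *Grm4* and *Grm5*. Among all 32851 windows of the genome, 12.6% held the TEAD core and 19.8% the OTX/CRX core. Shown are the window of *Grm6*, the receptor that rose, and the windows of *Grm7* and *Grm8* that held the TEAD core, with core letters in capitals, read 5′ to 3′ on the strand of the gene.
Grm6, chr11:50850435-50850684 (+): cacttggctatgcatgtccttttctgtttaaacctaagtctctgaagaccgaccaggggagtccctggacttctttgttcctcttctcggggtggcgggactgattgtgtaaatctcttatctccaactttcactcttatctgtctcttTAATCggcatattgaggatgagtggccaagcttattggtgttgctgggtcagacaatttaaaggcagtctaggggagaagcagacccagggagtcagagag
Grm7, chr6:110645262-110645511 (+): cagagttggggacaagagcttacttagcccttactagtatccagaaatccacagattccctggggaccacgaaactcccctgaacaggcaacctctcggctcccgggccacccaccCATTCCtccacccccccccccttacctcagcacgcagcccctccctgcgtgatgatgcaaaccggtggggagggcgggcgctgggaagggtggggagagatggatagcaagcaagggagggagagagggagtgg
Grm8, chr6:28134422-28134671 (−): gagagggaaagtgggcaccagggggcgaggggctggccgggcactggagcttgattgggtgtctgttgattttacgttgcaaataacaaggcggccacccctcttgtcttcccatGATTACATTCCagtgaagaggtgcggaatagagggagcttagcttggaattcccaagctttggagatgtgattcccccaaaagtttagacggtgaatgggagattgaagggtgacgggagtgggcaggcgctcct

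The window of *Grm6* held 1 OTX/CRX core, with 96 bases between it and the start site, and 0 TEAD cores. In *Grm7* the capitals mark a TEAD core on the opposite strand, with 128 bases between it and the start site. A later start of *Grm7* has an overlapping window that contains the same site. In *Grm8* the capitals mark an OTX/CRX core directly followed by a TEAD core, both on the opposite strand, and a further window of *Grm8* held an OTX/CRX core alone. The windows of *Grm2* and *Grm3* held neither core. These are matches of letters in a short window and do not show binding. Whether either core bears on the level of a receptor was not tested.

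The order of the levels was led by *Grm6* in both groups. In control retinas *Grm6* at 54.9 TPM was followed by *Grm7* (14.5), *Grm8* (13.9), *Grm2* (12.6), *Grm5* (9.96), *Grm4* (7.68) and *Grm3* (1.84 TPM). Among neighbours in this order, only *Grm6* and *Grm7*, and *Grm4* and *Grm3*, had ranges over the 3 retinas that did not overlap. In *Yap* cKO retinas the order was the same but for *Grm5* (13.8 TPM), which stood before *Grm2* (12.6 TPM), and these 2 overlapped in both groups. There the range of *Grm4*, 8.86 to 9.45 TPM, also lay clear of that of *Grm2*, 10.4 to 14.7 TPM.

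*Grm6* alone made up 47.6 ± 1.62% of the summed TPM of the 7 genes in controls and 52.7 ± 2.39% in *Yap* cKO retinas (SD, n = 3 each). By retina the share was 49.4, 47.0 and 46.3% in controls and 50.0, 54.5 and 53.7% in *Yap* cKO. The groups did not overlap, but YR711 lay close to YR612, and a two-sided exact permutation test gave p = 0.1, the smallest that 3 against 3 retinas allow. The summed TPM of the 7 genes was 115 ± 5.16 in controls and 149 ± 5.34 in *Yap* cKO (exact permutation p = 0.1). Without *Grm6* the other 6 summed to 60.4 ± 3.5 and 70.4 ± 6.0 TPM (exact permutation p = 0.1), again without overlap. Group II summed to 14.4 ± 0.928 and 15.8 ± 1.63 TPM (exact permutation p = 0.3), with overlap between the groups.

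*Grm3*, a group II receptor found on neurons and astrocytes in the brain, had the largest fold change of the family at the lowest level. It measured 1.64, 2.20 and 1.66 TPM in controls and 3.34, 3.69 and 2.64 TPM in *Yap* cKO. Each *Yap* cKO retina lay above each control, on only 33 to 98 counts per retina. The log2 fold change was 0.76 (SE 0.195, 95% interval 0.32 to 1.2) and did not pass the test (edgeR adjusted p = 0.0888). With the correction for length it was 0.83. It passed without control YR613 (adjusted p = 0.0398 in edgeR) and without *Yap* cKO YR714 (0.0433). Its partner in group II, *Grm2*, which marks starburst amacrine cells in the retina, gave 13.5, 11.2 and 13.2 TPM in controls and 12.6, 10.4 and 14.7 TPM in *Yap* cKO. The groups interleaved, both at a mean of 12.6 TPM. Its log2 fold change was -0.06 (95% interval -0.40 to 0.28, edgeR adjusted p = 0.827). It was -0.08 with the correction for length. The 6 starburst amacrine markers summed to 101 to 111 TPM in controls and 109 to 119.6 TPM in *Yap* cKO. Of the 6, 0 passed edgeR's test, beside 1.49% of all tested genes. At an unadjusted p of at most 0.05 there were 5, beside 21.4%, and 1 passed the adjusted p in DESeq2, beside 5.96%.

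*Grm5*, the group I receptor, signals through Gq and is held at synapses by Homer and Shank scaffolds. It measured 7.44, 12.5 and 9.97 TPM in controls and 16.8, 13.7 and 11 TPM in *Yap* cKO. Retinas of the same group lay far apart, and *Yap* cKO YR714 lay below control YR613. The log2 fold change of 0.42 (SE 0.176, 95% interval 0.02 to 0.82) did not pass (edgeR adjusted p = 0.213). It was 0.27 with the correction for length, *Grm5* having the longest exonic sequence of the 7 at 10247 bases.

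The other group III receptors are presynaptic, mGluR7 at bipolar and amacrine terminals and mGluR8 at photoreceptor terminals among others, where they reduce glutamate release. *Grm4* measured 8.04, 7.40 and 7.6 TPM in controls and 8.98, 8.86 and 9.45 TPM in *Yap* cKO retinas. The groups were tight and did not overlap in TPM, yet the log2 fold change of 0.19 (95% interval -0.05 to 0.42) did not pass (edgeR adjusted p = 0.324) and was 0.14 with the correction for length. *Grm7* measured 13.3, 16.3 and 14 TPM in controls and 19.4, 16.8 and 14.9 TPM in *Yap* cKO. Here *Yap* cKO YR714 lay below control YR613, and the log2 fold change was 0.17 (95% interval -0.07 to 0.42, edgeR adjusted p = 0.372), or 0.12 with the correction for length. *Grm8* gave 13.4, 14.7 and 13.4 TPM in controls and 16.2, 13.7 and 14 TPM in *Yap* cKO. Only YR711 lay above all controls, and the log2 fold change was 0.02 (95% interval -0.18 to 0.21, edgeR adjusted p = 0.918), which turned to -0.12 with the correction for length. Its 95% interval leaves out a change as large as that of *Grm6*, although the difference between the 2 genes was not tested.

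The genes lie on 6 chromosomes, with *Grm7* and *Grm8* both on chromosome 6, and differ more in span than in exonic length. *Grm6* is compact, from 50850685 to 50866208 on the forward strand of chromosome 11 (GRCm38), 15524 bases with 5421 exonic bases. *Grm7* spans 921650 bases, from 110645581 to 111567230 on the forward strand of chromosome 6, with 5886 exonic bases. *Grm8* spans 860060 bases on the reverse strand of the same chromosome, from 27275119 to 28135178, and shares 96 exonic bases with *Mir592* on its own strand. Exons of *Grm2*, *Grm6* and *Grm7* each overlap a predicted gene on the opposite strand, by 470, 599 and 130 bases, and the counting was set to use strand.

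The mGluR6 cascade was read from 11 further genes listed as its parts, among them G protein subunits and the channel. In RNA of a whole retina, their levels cannot be assigned to ON bipolar cells alone. None of the 11 passed edgeR's quasi-likelihood test at an adjusted p of at most 0.05, beside 1.49% of all tested genes, although 9 had an unadjusted p of at most 0.05, beside 21.4%. DESeq2 and edgeR's likelihood ratio test each passed 5 of them, beside 5.96% and 6.18% of all genes, and limma-voom 0, beside 1.64%. The 5 were the same in both tests, *Gpr179*, *Nyx*, *Trpm1* and *Rgs7*, which were higher, and *Gng13*, which was lower. The log2 fold change was above 0 for 6 and below 0 for 5, with a median of 0.19, or 0.02 with the correction for length. In TPM 5 lay wholly above the controls and 2 wholly below them, beside 15.2% and 9.04% of all tested genes. In log2 CPM with TMM scaling 5 lay wholly above and 3 wholly below, *Rgs11* being added, beside 12.3% and 12.4%. The positive values belonged to *Nyx*, *Gpr179*, *Trpm1*, *Lrit3*, *Rgs7* and *Gnao1*, and the negative ones to *Gng13*, *Rgs11*, *Gnb3*, *Gnb5* and *Rgs9bp*.

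*Nyx*, which codes for nyctalopin, the protein that anchors TRPM1 near mGluR6, had the largest fold change of the cascade. It measured 10.8, 16.8 and 13.9 TPM in controls and 24.5, 27.0 and 19.5 TPM in *Yap* cKO. The groups did not overlap, and the log2 fold change was 0.72 (95% interval 0.38 to 1.07, edgeR adjusted p = 0.0532). *Gpr179*, the orphan receptor that holds RGS7 and RGS11 at the tip, gave 40.3, 49.7 and 31.9 TPM against 71.4, 72.5 and 54.7 TPM. Again no *Yap* cKO retina fell into the control range, and the log2 fold change was 0.65 (95% interval 0.30 to 0.99, edgeR adjusted p = 0.0741). *Trpm1*, the channel itself, gave 40.8, 50.5 and 34.7 TPM against 80.1, 70.4 and 53.6 TPM, with a log2 fold change of 0.64 (95% interval 0.29 to 0.98, edgeR adjusted p = 0.0772). In *Nyx*, *Gpr179* and *Trpm1*, unlike in *Grm6*, the retinas were spread inside each group, YR613 being the highest control and YR714 the lowest *Yap* cKO retina. *Rgs7* and *Gnao1*, singled out after their values were seen, also lay wholly above the controls. *Rgs7* gave 23.5, 25.9 and 29.7 TPM against 34.8, 36.7 and 35.1 TPM, so its *Yap* cKO retinas lay close together, like those of *Grm6* (log2 fold change 0.37, edgeR adjusted p = 0.0805). With the correction for length the log2 fold changes were 0.70 for *Nyx* and 0.52 for *Gpr179*, which then passed (adjusted p = 0.0317 and 0.0472), and 0.38 for *Trpm1*, which did not. Without control YR613, 4 cascade genes met all criteria, beside 3.06% of all genes tested in that setting. Without *Yap* cKO YR714, 3 did, beside 2.66%.

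At the other end of the cascade, *Gng13*, the G protein gamma subunit paired with Go in ON bipolar cells, and *Gnb3*, the beta subunit, were the 2 members wholly below the controls in TPM (both singled out after their values were seen). *Gng13* measured 652, 553 and 619 TPM in controls and 525, 410 and 504 TPM in *Yap* cKO, a log2 fold change of -0.40 (95% interval -0.67 to -0.14, edgeR adjusted p = 0.112). *Gnb3* measured 497, 483 and 492 TPM in controls and 473, 397 and 407 TPM in *Yap* cKO, a log2 fold change of -0.26 (adjusted p = 0.135 in edgeR). With the correction for length the log2 fold changes were smaller, -0.29 for *Gng13* and -0.18 for *Gnb3*. Both had the reverse sign of *Grm6*, and neither passed edgeR's quasi-likelihood test. *Gng13* did pass the adjusted p with DESeq2 and with the likelihood ratio test. The summed TPM of the 11 genes, most of it from G protein subunits, was 2901 to 2999 in controls and 2792 to 2942 in *Yap* cKO, with overlap.

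**Figure D3:**
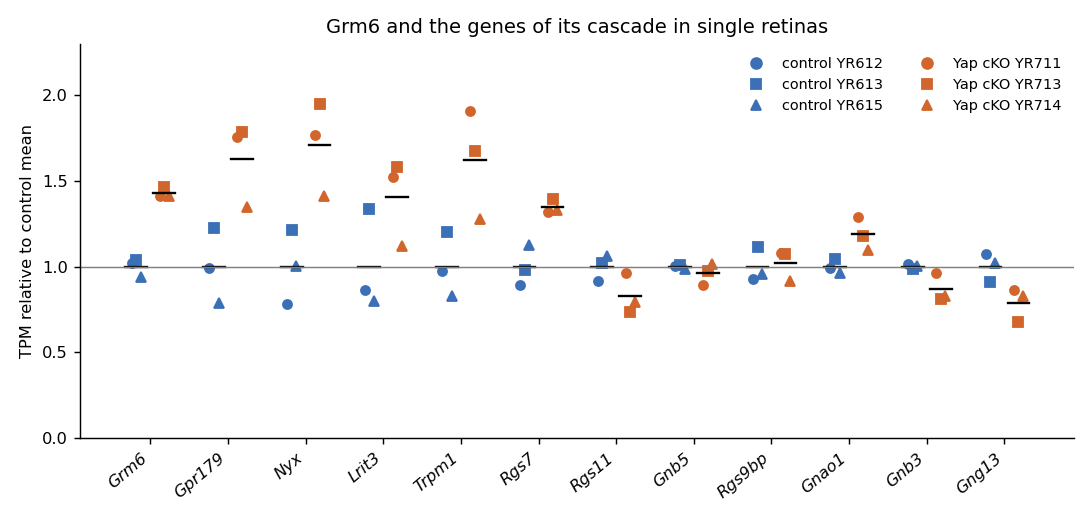
TPM of *Grm6* and the 11 cascade genes in each retina, divided by the mean of the 3 controls of that gene (horizontal bars are group means, the grey line is the control mean). *Grm6*, *Gpr179*, *Nyx*, *Trpm1*, *Rgs7* and *Gnao1* sit above their controls in all *Yap* cKO retinas, whereas *Gnb3* and *Gng13* sit below. *Gpr179*, *Nyx* and *Trpm1* have a wider spread than *Grm6*.

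Summed markers of the ON bipolar cells, which carry mGluR6, overlapped between the groups, unlike *Grm6*. The 8 markers summed to 1022, 1052 and 1038 TPM in controls and 1151, 966 and 1024 TPM in *Yap* cKO (exact permutation p = 0.9). None of the 8 passed the test with edgeR, DESeq2 or limma-voom, beside 1.49%, 5.96% and 1.64% of all tested genes. At an unadjusted p of at most 0.05 there were 3, beside 21.4%. The median log2 fold change of the 8 was 0.08. In TPM 1 of the 8, *Isl1*, lay wholly above the controls, at 64.0 to 70.5 against 55.4 to 56.1, beside 15.2% of all tested genes. Of the markers at that unadjusted p, *Isl1* was higher (log2 fold change 0.19), and *Pcp2* (-0.28) and *Cabp5* (-0.25) were lower. All 3 were singled out after their values were seen. *Grm6* per 100 TPM of these markers was 5.29 ± 0.275 in controls and 7.53 ± 0.798 in *Yap* cKO (SD, n = 3 each, exact permutation p = 0.1), without overlap. *Grm6* was also set against *Gpr179*, *Nyx*, *Lrit3* and *Trpm1*, the 4 cascade genes with the highest log2 fold changes, so that the choice of genes lowers the ratio in *Yap* cKO. *Grm6* per 100 TPM of these 4 was 36.5 ± 6.25 in controls and 33.4 ± 5.98 in *Yap* cKO, with overlap (exact permutation p = 0.7). Both ratios were chosen after the values were seen.

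Of the 14 marker lists, 12 held no gene that passed edgeR's test, those of pigment and ciliary body epithelium being the exceptions. OFF bipolar markers summed to 142 to 156 TPM in controls and 177 to 204 TPM in *Yap* cKO, amacrine markers to 747 to 843 and 913 to 969 TPM, and Müller glia markers to 6916 to 7142 and 6056 to 6465 TPM. Sums of these lists, singled out after their values were seen, did not overlap between the groups. OFF bipolar and amacrine sums went in the direction of *Grm6*. The Müller glia sum went against it, with 3 of its 10 markers above 0 in log2 fold change. Sums of rod, cone, horizontal, ganglion cell and starburst amacrine markers overlapped. The part of any list in the receptor values was not tested. The pigment epithelium list held 1 gene that passed, *Pmel*, and the ciliary body list 6 of 8, beside 1.49% of all tested genes. All of these were lower in *Yap* cKO. The other ciliary body markers, *Aqp1* (log2 fold change 0.29) and *Car2* (0.14), were higher and did not pass. Summed ciliary body markers ran from 1131 to 1261 TPM in controls and from 1258 to 1295 TPM in *Yap* cKO, with overlap. Most of that sum came from *Car2* and *Aqp1*, at control means of 838 and 229 TPM, so it says little of the 6 markers that were lower. Summed pigment epithelium markers ran from 663 to 726 TPM in controls and from 206 to 684 TPM in *Yap* cKO. The part of either tissue in the *Grm6* values was not tested. Of 8 lens markers 2 had enough counts to be tested, and *Lim2* was at 0 counts in every retina.

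**Figure D4:**
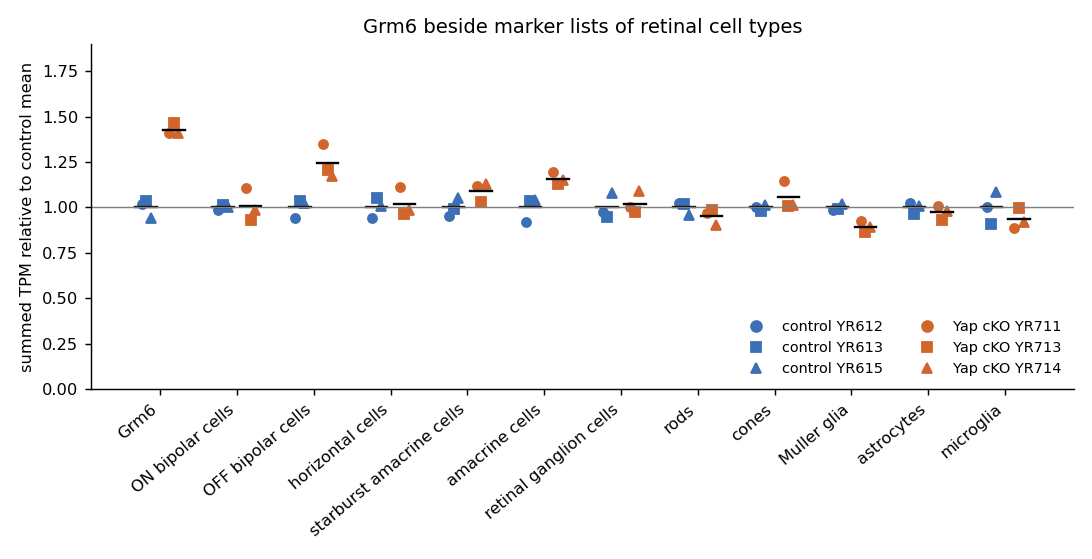
TPM of *Grm6* and summed TPM of 11 marker lists of retinal cell types in each retina, divided by the mean of the 3 controls (horizontal bars are group means, the grey line is the control mean). The mean of *Grm6* lies at 1.43 in *Yap* cKO, with little spread, while ON bipolar markers lie on both sides of the control mean. This 1.43 is a ratio of TPM, and the fold from edgeR with TMM scaling was 1.37.

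The 19 partners of the wider family, which are G proteins, phospholipases, scaffolds and binding proteins, had a log2 fold change above 0 in 16 and below 0 in 3, beside 50.3% above 0 among all tested genes, and 15 lay above 0 with the correction for length. The median log2 fold change was 0.22, or 0.13 with the correction. None passed edgeR's quasi-likelihood test at an adjusted p of at most 0.05, beside 1.49% of all tested genes, and 9 had an unadjusted p of at most 0.05, beside 21.4%. DESeq2 passed 2 of the 19 and limma-voom 1, beside 5.96% and 1.64% of all genes. *Shank2*, a postsynaptic scaffold that binds Homer, gave 17.1, 22.1 and 16.3 TPM in controls and 28.2, 29.5 and 25.5 TPM in *Yap* cKO. It did not overlap between the groups and came closest to the threshold, with a log2 fold change of 0.53 (95% interval 0.29 to 0.77, edgeR adjusted p = 0.0506), and passed with the correction for length (log2 fold change 0.37, adjusted p = 0.0343). *Homer2* gave 5.12, 7.73 and 6.12 TPM against 11.1, 8.58 and 7.40 TPM, where YR714 fell below YR613 (log2 fold change 0.45, edgeR adjusted p = 0.16). *Plcb4*, a phospholipase C of the Gq pathway, gave 42.2, 58.9 and 49.7 TPM against 70.5, 72.5 and 58.5 TPM (log2 fold change 0.36, edgeR adjusted p = 0.127). With the correction for length the log2 fold changes of *Homer2* and *Plcb4* were each 0.25. In these genes, as in *Grm5*, control YR613 and *Yap* cKO YR714 approached each other. In TPM 7 of the 19 lay wholly above the controls, beside 15.2% of all tested genes, and 1, *Homer3*, singled out after its values were seen, wholly below them, beside 9.04%. Without control YR613, 2 partners met all criteria, a setting in which 3.06% of all tested genes did.

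The genes whose pattern over the 6 retinas was most like that of *Grm6*, by Pearson's r of log2 CPM, were *St6galnac5* (0.999), *Prkg2* (0.995) and *Ece1* (0.994). They code for a sialyltransferase, a cyclic GMP-dependent protein kinase and the endothelin-converting enzyme. The 6 points share the libraries and the difference between the groups, so these values are a description only.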

How the data were processed

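Retinas of 6 animals were compared, 3 control and 3 *Yap* cKO, grouped by the genotype in the sample labels. Per the labels and file header, the authors aligned paired-end reads to GRCm38 with STAR 2.7.3a and counted fragments on exons with featureCounts 1.6.2 (strand setting 2, annotation release 98). The deposited values are raw counts per gene, without normalization. Of 55421 identifiers, 55154 matched a symbol. The methods describe the retinas as independent biological replicates, so p-values measure the spread between 3 animals a group.

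Genes with low counts were removed with filterByExpr. Libraries were scaled by TMM (factors 0.986 to 1.02) and groups compared with the quasi-likelihood test of edgeR 4.0.16 in R 4.3.3, with Benjamini-Hochberg adjustment over 16575 genes. A called gene had an adjusted p no higher than 0.05, at least 1.5-fold change and, in a group, at least 5 TPM on average. TPM was computed from counts and exonic length. The correction for length used offsets from a loess curve (span 0.3) fitted in each retina. Intervals are 95% intervals of the fit. Alternatives included limma 3.58.1 and DESeq2 1.42.0. Scripts were tested on simulated data.

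The receptor family, gene lists and tests were chosen with earlier results of these data known, and family members were then matched by symbol. Of the 2 pathway lists, genes past the adjusted p and the 3 with the largest absolute fold change were to be named, with all 7 receptors, *Yap1*, and the 3 genes most like *Grm6* by Pearson's r. Marker genes were to be named only where called or at 0 counts. Of the receptor family, 1 gene is not reported here.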

Additional observations from a re-analysis of the deposited data

How the results depend on the processing

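All fold changes were refitted under 14 settings, 6 that left out a retina and 8 others (median-ratio or library size scaling, DESeq2, edgeR's likelihood ratio test, limma-voom, no low-count filter, a CPM filter and the correction for length). The criteria, the unit of the levels and the shares were varied besides, as given below. *Grm6* stayed higher under all of them, from 0.41 to 0.49 (log2) with a retina left out and from 0.42 to 0.46 otherwise, with adjusted p from 6.18e-05 to 0.0267 outside the left-out retinas and from 0.0182 to 0.131 within them. *Grm4* and *Grm7* stayed above 0 and short of the threshold in all 14. With a retina left out *Grm2* ran from -0.22 to 0.06 and *Grm8* from -0.06 to 0.07. Signs changed for *Grm2* without control YR612 (0.01) or *Yap* cKO YR713 (0.06), and for *Grm8* without YR615 (-0.01), without YR711 (-0.06) and with the correction for length (-0.12). *Grm3* passed under the likelihood ratio test and with no filter, at adjusted p of 0.0165 and 0.0134, and *Grm5* with no filter alone (0.00441). The number of receptors past the adjusted p was 2 in the likelihood ratio test, beside 6.18% of all tested genes. It was 0 to 2 with a retina left out and 3 with no filter, settings for which no such share was computed. The number called was 0 throughout, except 1 when the fold minimum was dropped. The receptors' median log2 fold change ran from 0.17 to 0.24 with a retina left out and was 0.14 with the correction for length.

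Cascade genes that met all criteria numbered 0 to 4 with a retina left out, 3 each with DESeq2, the likelihood ratio test and no filter, and 1 with the correction for length. Past the adjusted p alone there were 5 each with DESeq2 and the likelihood ratio test, beside 5.96% and 6.18% of all genes. With the correction for length there were 2, beside 2.53%. There were 0 to 5 with a retina left out and 7 with no filter, but no share of all genes by adjusted p was computed for those settings. Partners that met all criteria numbered 0 to 2 with a retina left out. Past the adjusted p alone there were 2 partners each with DESeq2 and the likelihood ratio test, beside 5.96% and 6.18% of all genes. With limma-voom and the correction for length there was 1 each, beside 1.64% and 2.53%. There were 0 to 6 with a retina left out, 5 with no filter and 1 with library size scaling, again without a computed share. The counts by adjusted p for both lists, and both ratios of *Grm6* to other genes, were chosen after seeing the data. Over all genes, 132 were called, against 38 to 516 with a retina left out (516 without YR613 and 38 without YR615), 263 with DESeq2, 291 with the likelihood ratio test and 369 with no filter. The cause was not tested. The share of *Grm6* among the receptors was 40.5% in controls and 45.4% in *Yap* cKO when taken from counts without division by length. The order of the levels did not change with RPKM.

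No paired analysis was possible because the labels give each retina an animal code of its own and no replicate number shared between the groups. With 3 retinas a group, single values cannot reach an exact p below 0.1. *Grm3* rests on under 100 counts per retina.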
